A study of Arabidopsis thaliana with 14 samples.

Results

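The 3′ flank of *FLC* is the 1000 bp of the captured region that lies beyond the end of the gene, next to the start of its antisense transcript. Its members are the MNase-protected fragments whose midpoint fell within chr5:3172382-3173381 (TAIR10). The deposited data list 97287 such fragments among 1039765 for the whole *FLC* target, where each entry is 1 distinct start and end in 1 library. These were 23591 different fragments, of which 291 were found in all 14 libraries and 7605 in 1 library. For the analysis the flank was divided into 10 bins of 100 bp, numbered 0 to 9 from the outer edge towards *FLC*.

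Nuclei of whole Arabidopsis seedlings were digested with MNase, and the DNA of *FLC* was enriched from the libraries with baits. There were 4 libraries of *vrn1-4* FRI 1W cold, 3 of *vrn1-4* FRI warm, 4 of WT FRI 1W cold and 3 of WT FRI warm. WT FRI is Col-0 carrying an active *FRIGIDA* allele introgressed from San Feliu-2, which both genotypes share, and *vrn1-4* FRI carries in addition the *vrn1-4* mutation, the only mutant allele of *VRN1* used. Warm seedlings grew for 10 days at 22 °C, and 1W cold seedlings then had 1 week at 5 °C. Replicates are labelled as biological replicates, each prepared from pooled seedlings. A value from whole seedlings cannot tell a change in a few cells from a smaller change in all cells.

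MNase cuts linker DNA faster than DNA wrapped on a histone octamer, so that the fragments left after digestion mark nucleosomes and their borders, and it is also known to prefer A/T-rich DNA. *FLC* encodes a MADS-box repressor of flowering that is silenced by prolonged cold. A set of antisense transcripts, COOLAIR, starts just beyond its polyadenylation site and is known to increase early in cold exposure. *VRN1* encodes a B3-domain protein that binds DNA without sequence specificity and is needed for stable *FLC* silencing after cold.

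Positions are counted in bp from the annotated antisense start, and the flank ran from -989 to 10. On the outer side, 320 bp belonged to the first exon of AT5G10130, a gene of the pollen Ole e 1 family on the minus strand whose annotated start is base 3172701. The next 669 bp, chr5:3172702-3173370, lay between the genes. The last 11 bp belonged to the antisense gene AT5G01675, on the plus strand, which starts at base 3173371, just outside the end of *FLC* (AT5G10140, minus strand, last base 3173382), and runs into *FLC* on the opposite strand. All 237 *FLC* baits matched the reference, 26 of them overlapping the flank, and the first bait began at base 3172383. No deposited fragment began before base 3172382, so bin 0 is short of fragments by construction and its level is not comparable with the other bins.

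Stretches of the DNA between the genes that carry the results below are given 5′ to 3′ on the plus strand, the strand of the antisense transcript, as in the RefSeq copy of chromosome 5, whose bases matched the baits. In the first, the 150 bp before the antisense start (chr5:3173221-3173370), capitals mark the core of the C-repeat element, CCGAC, on either strand (GTCGG on the strand shown). This element is bound by the cold-induced CBF proteins of Arabidopsis. In the others, capitals mark runs of 10 or more bases that hold only A and T. They are the bin with the lowest coverage (bin 4, chr5:3172782-3172881), an AT-rich bin that was lower in *vrn1-4* FRI (bin 7, chr5:3173082-3173181), and the most frequent single fragment outside AT5G10130 (chr5:3172879-3173027).
Before the antisense start: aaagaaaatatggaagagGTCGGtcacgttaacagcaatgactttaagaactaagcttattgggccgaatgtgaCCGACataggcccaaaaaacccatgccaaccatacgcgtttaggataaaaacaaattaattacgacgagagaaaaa
Bin 4: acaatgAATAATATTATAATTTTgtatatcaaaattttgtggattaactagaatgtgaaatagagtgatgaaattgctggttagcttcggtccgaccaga
Bin 7: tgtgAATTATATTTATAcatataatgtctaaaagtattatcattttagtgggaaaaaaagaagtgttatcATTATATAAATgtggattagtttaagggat
Most frequent fragment between the genes: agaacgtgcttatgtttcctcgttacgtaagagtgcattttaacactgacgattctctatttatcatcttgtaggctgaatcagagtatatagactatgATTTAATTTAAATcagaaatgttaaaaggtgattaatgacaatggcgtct

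CCGAC occurred 4 times in the flank, on either strand, and 2 of these matches lay within the 150 bp before the antisense start, at -132 and -76. Of the 150-bp windows upstream of 27443 protein-coding genes, 8.05% held CCGAC, and of the 1000-bp windows 37.4% did. These shares, and those of the motifs below, count a window whatever its number of matches. How many windows held as many matches as the flank was not counted. The W-box core TTGAC occurred 2 times (88.1% of 1000-bp windows), TATAAA 3 times (83.6%), and CACGTG had no match in the flank (14.8%). Neither TTGAC nor TATAAA was found in the 150 bp before the antisense start, where 30.7% and 34.0% of the upstream windows held them. Runs of 10 or more A or T bases occurred 10 times (96.1% of 1000-bp windows). The longest, 17 bp, was in bin 4. A match says only that these letters are in the window.

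All values are shares of the *FLC* fragments of a library, since the deposited frequencies of each library sum to 1. A higher share in the flank therefore requires a lower share elsewhere in *FLC*, and the sequenced depth is not part of the values. The libraries held 14166 to 124173 distinct fragments, 1355 to 12197 of them in the flank, and both extremes at the low end were WT FRI warm replicate 2. A pair of libraries was set aside as an alternative for standing apart from its groups over the 96 bins of *FLC*. WT FRI 1W cold replicate 1 correlated with the mean of the other libraries of its group at r = 0.44, against 0.90 to 0.94 for the other libraries of that group, and *vrn1-4* FRI 1W cold replicate 3 at r = -0.24 with its own group and at 0.33 with WT FRI 1W cold. These values of r are taken across bins after subtracting the mean of all libraries. Low values were not confined to this pair, since *vrn1-4* FRI 1W cold replicate 4 had r = 0.27 with its own group and 0.79 with *vrn1-4* FRI warm, and the 3 WT FRI warm libraries had 0.38 to 0.49 with their own group. WT FRI 1W cold replicate 1 was still most like its own group (r = -0.50 with *vrn1-4* FRI 1W cold), and the files do not show whether either library carries the wrong label, so all are used as labelled. The pair was chosen on the bin profiles, flank bins included. Values without the pair are therefore given below as a description, and a call gained that way is no support. The A+T content of the fragments outside the flank also differed, at 63.0 ± 0.552% in *vrn1-4* FRI 1W cold (SD, n = 4) and 64.5 ± 0.429% in WT FRI 1W cold (SD, n = 4; two-sided exact permutation test, p = 0.0286), and at 62.3 ± 0.247% in *vrn1-4* FRI warm and 63.9 ± 0.413% in WT FRI warm (SD, n = 3 each; exact p = 0.1, the smallest possible).

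The flank held 7.24 to 10.2% of the *FLC* fragments of a library, and no comparison of this total passed the threshold. Its share was 8.62, 8.31, 9.54 and 9.37% in *vrn1-4* FRI 1W cold and 10.2, 8.30 and 8.95% in *vrn1-4* FRI warm. In WT FRI 1W cold it was 8.41, 8.11, 7.24 and 7.25%, against 7.39, 9.05 and 8.56% in WT FRI warm. Within the cold the *vrn1-4* FRI mean was 1.21 percentage points above that of WT FRI, with 1 overlapping library on each side (exact permutation test, p = 0.0571, adjusted p = 0.171 over 24 tests). The remaining 3 comparisons had adjusted p-values of 0.457 to 0.914 by the same exact test. The 1000 bp of *FLC* next to the flank held a larger share in 14 of 14 libraries (mean 8.52% in the flank and 10.4% in *FLC*), and the 1000 bp at the other end of the target, upstream of *FLC*, a smaller one in 14 of 14 (6.45%). Both differences passed an exact sign-flip test over libraries (adjusted p = 0.000163 over 4 tests). Fragments were also longer in the flank than in either of these parts, by 0.850 bp and 1.50 bp on average, in 13 and 14 of 14 libraries (adjusted exact p = 0.000244 and 0.000163). The flank total includes bin 0, which is short of fragments by construction, whereas the neighbouring 1000 bp of *FLC* are not cut off. Their shares were not compared without that bin.

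Apart from the bases next to the outer edge, where fragments are cut off by the target, coverage was lowest in the DNA between the genes and highest over AT5G10130 in 3 of the 4 groups. The lowest point was at -577 in both *vrn1-4* FRI groups and at -570 in both WT FRI groups, inside the 17-bp A/T run shown above for bin 4, where mean coverage was 0.131% of *FLC* fragments in *vrn1-4* FRI 1W cold, 0.0826% in *vrn1-4* FRI warm, 0.307% in WT FRI 1W cold and 0.261% in WT FRI warm. The highest coverage was over the first exon of AT5G10130 at -772 in both *vrn1-4* FRI groups (2.48% in 1W cold and 2.98% in the warm) and at -784 in WT FRI 1W cold (1.84%). In WT FRI warm it was at -444 instead (1.78%). The 5 preferred midpoints, taken from the mean profile of all libraries, lay at -808, -657, -406, -179 and -2. The distances between neighbours were 151, 251, 227 and 177 bp.

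The annotated antisense start was covered by fragments rather than lying in a trough. Coverage within 50 bp of it exceeded that of the windows centred 200 bp to either side in 13 of 14 libraries, the exception being WT FRI 1W cold replicate 2, where it was 0.975% against 1.06% in the window before the start and 0.718% in the window inside *FLC*. The ratio of the start to the mean of its neighbours ran from 1.10 to 3.48 over the libraries. It averaged 1.92 ± 0.822 in *vrn1-4* FRI 1W cold, 2.83 ± 0.627 in *vrn1-4* FRI warm, 1.28 ± 0.203 in WT FRI 1W cold and 2.24 ± 0.583 in WT FRI warm (SD, n = 4, 3, 4 and 3). At the other annotated start of the flank, that of AT5G10130, coverage was below both neighbouring windows in 5 of 14 libraries.

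Coverage over the antisense start was lowest in cold-treated WT FRI. It was 1.13, 0.975, 0.902 and 1.02% in WT FRI 1W cold, against 1.20, 2.002 and 1.53% in WT FRI warm. The groups did not overlap, and the cold mean was 63.8% of the warm one (difference -0.57 percentage points, exact permutation test, p = 0.0286, the smallest possible for 4 against 3), but this did not pass adjustment over 24 tests (adjusted p = 0.137). In *vrn1-4* FRI it was 1.26, 1.10, 1.34 and 2.50% in 1W cold, against 2.77, 1.58 and 1.57% in the warm. These groups overlapped through replicate 4 of the cold (difference -0.42, exact permutation test, p = 0.429, adjusted p = 0.643). The difference between the 2 genotypes in this change was 0.149 percentage points and did not pass (permutation of genotype labels within each temperature, p = 0.79 over 1400 arrangements). Within the cold, coverage was 1.55 ± 0.640% in *vrn1-4* FRI and 1.01 ± 0.0953% in WT FRI (SD, n = 4 each), with exact permutation p = 0.0571 and adjusted p = 0.171. Without *vrn1-4* FRI 1W cold replicate 4 this last difference was 0.229 instead of 0.545 percentage points, and without *vrn1-4* FRI warm replicate 1 the difference between the warm genotypes was -0.0027 instead of 0.396. Without the pair of libraries that stood apart, the difference between cold and warm in WT FRI was -0.61.

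**Figure D1:**
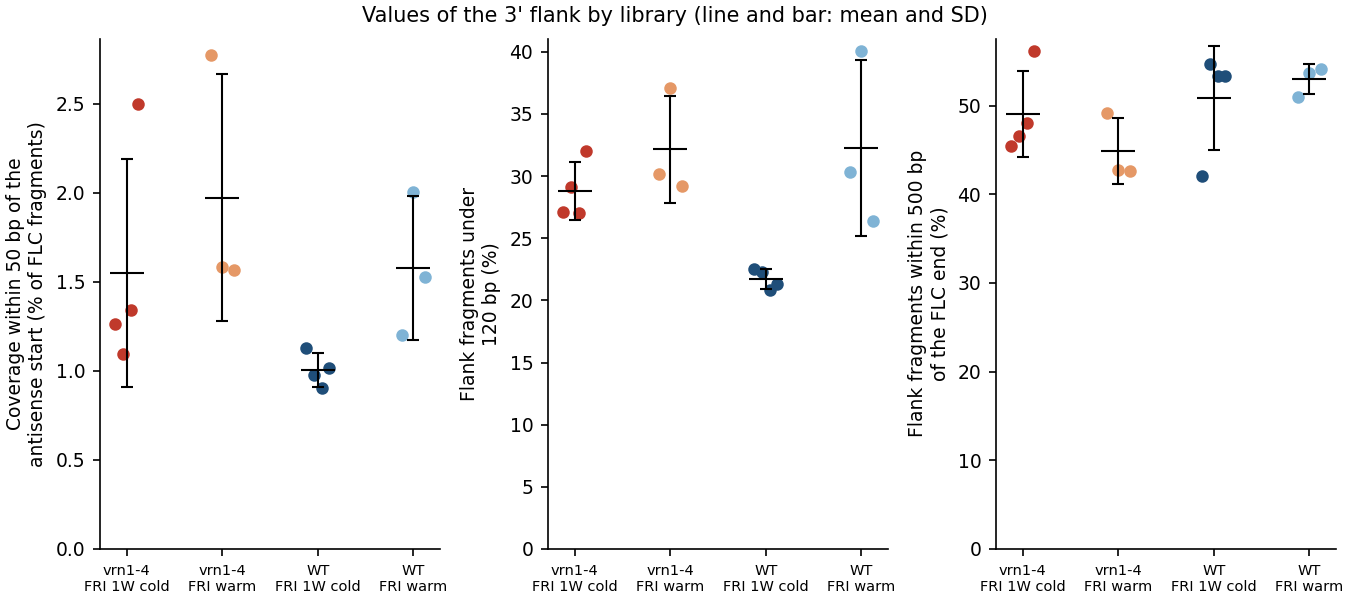
Coverage within 50 bp of the antisense start, share of flank fragments under 120 bp, and share of flank fragments within 500 bp of the *FLC* end (vertical axes, all in percent) for each library (points) by group (horizontal axis), with the group mean and SD. The 4 WT FRI 1W cold libraries lay between 0.902 and 1.13% for coverage and between 20.8 and 22.5% for short fragments, below every WT FRI warm library in both.

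Fragments of the flank were longer in WT FRI 1W cold than in the other groups, as they were over the rest of *FLC* (132.4 ± 0.556 bp in WT FRI 1W cold and 126.3 to 128.2 bp as the means of the other groups). The mean length was 129.3 ± 1.22 bp in *vrn1-4* FRI 1W cold, 127.8 ± 1.74 bp in *vrn1-4* FRI warm, 133.1 ± 0.198 bp in WT FRI 1W cold and 128.4 ± 2.55 bp in WT FRI warm (SD, n = 4, 3, 4 and 3). Fragments under 120 bp, shorter than the DNA of a full nucleosome, made up 22.5, 22.3, 20.8 and 21.3% in WT FRI 1W cold, against 30.3, 40.1 and 26.4% in WT FRI warm. They made up 27.1, 29.1, 27.0 and 32.0% in *vrn1-4* FRI 1W cold, against 30.1, 37.1 and 29.2% in *vrn1-4* FRI warm. WT FRI 1W cold lay below both WT FRI warm and *vrn1-4* FRI 1W cold in every library. Each of these differences had the smallest p its design allows (exact permutation test, p = 0.0286, adjusted p = 0.137), whereas cold against warm in *vrn1-4* FRI had p = 0.2 by the same exact test. Relative to the rest of *FLC*, the flank fragments were longer by 1.40 ± 0.319 bp in *vrn1-4* FRI 1W cold, 1.50 ± 0.110 bp in *vrn1-4* FRI warm, 0.741 ± 0.425 bp in WT FRI 1W cold and 0.166 ± 0.145 bp in WT FRI warm. All 3 *vrn1-4* FRI warm libraries (1.39 to 1.60 bp) exceeded all 3 WT FRI warm libraries (0.0620 to 0.332 bp), a difference of 1.34 bp (exact permutation p = 0.1, the smallest possible for 3 against 3, adjusted p = 0.218).

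Bins were tested with limma on log2(share + 0.0001) over all 96 bins of *FLC*, and a difference passed below an adjusted p of 0.05 (Benjamini-Hochberg). Against WT FRI, *vrn1-4* FRI seedlings had more fragments in bin 2, in the first exon of AT5G10130, and fewer in bins 6 and 7 between the genes, in the warm and in the cold. In the warm, 4 of the 10 flank bins passed the test, against 36.5% of all bins, with 1 higher (8.33% of all bins) and 3 lower (28.1%). In the cold, 5 of 10 passed, against 42.7% of all bins, with 3 higher (12.5%) and 2 lower (30.2%). With these settings the totals of 4 and 5 are near the background of the whole locus. In the cold, 7 flank bins passed with 0.001 in place of 0.0001 added, with fragments of 120 to 150 bp only, or after centring on the median bin. Of all 96 bins, 41, 42 and 43 passed under these choices. In the warm, 4 flank bins passed under each of them, and 35, 33 and 28 of all 96 bins. Without the pair of libraries that stood apart, 5 flank bins passed in the warm against 42.7% of all bins, and 6 in the cold against 51% of all bins. The pair holds no warm library and enters the warm test only through the shared estimate of spread. With each distinct fragment counted once, which ignores how often it was read, 2 flank bins passed in the warm (0 and 2) against 11.5% of all bins, and 3 in the cold (0, 2 and 8) against 9.38% of all bins, and the calls of bins 3, 4, 6 and 7 were lost. The flank bins had a median log2 difference of 0.17 (warm) and 0.26 (cold), against -0.16 and -0.10 over all 96 bins.

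Bin 2, in the first exon of AT5G10130, was the flank bin that rose in *vrn1-4* FRI at both temperatures. It held 2.16, 1.96 and 2.03% of *FLC* fragments in *vrn1-4* FRI warm, against 0.933, 1.18 and 0.992% in WT FRI warm. It held 1.74, 1.56, 1.62 and 1.35% in *vrn1-4* FRI 1W cold, against 1.60, 0.814, 0.811 and 0.892% in WT FRI 1W cold. The warm groups did not overlap, and in the cold the overlap came from WT FRI 1W cold replicate 1 alone. The log2 difference was 0.99 ± 0.21 in the warm (SE, limma adjusted p = 0.00313) and 0.66 ± 0.18 in the cold (limma adjusted p = 0.0102), and 0.87 in the cold without the pair of libraries that stood apart. Beside it, bin 1 held 1.70, 1.30 and 1.66% in *vrn1-4* FRI warm, against 1.19, 1.11 and 1.23% in WT FRI warm. In the cold bin 1 held 1.60, 1.36, 1.47 and 1.45% in *vrn1-4* FRI, against 1.71, 1.05, 1.13 and 1.17% in WT FRI. Bin 1 was higher in every *vrn1-4* FRI warm library, but its difference of 0.39 missed the threshold (limma adjusted p = 0.0766), as did that of 0.24 in the cold (0.178). Without the pair of libraries, both of them cold, the cold difference was 0.39. The warm one, which the pair does not enter, stayed at 0.39.

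Bin 3, which spans the start of AT5G10130, fell in *vrn1-4* FRI warm. It held 0.522, 0.578 and 0.583% there, against 0.688, 1.16 and 0.997% in WT FRI warm. The groups did not overlap, and the log2 difference was -0.72 ± 0.24 (limma adjusted p = 0.0359). In the cold it held 0.581, 0.727, 1.07 and 0.579% in *vrn1-4* FRI, against 0.902, 1.23, 0.855 and 0.773% in WT FRI. Replicate 3 of *vrn1-4* FRI 1W cold lay among the WT FRI libraries, and the difference of -0.37 did not pass (limma adjusted p = 0.167). Without the pair of libraries, one of them this replicate, it was -0.57. The call in the warm was lost when any 1 of 5 of the 6 warm libraries was left out (limma adjusted p = 0.0668 to 0.116).

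Bins 6 and 7, the AT-rich DNA from -389 to -190, fell in *vrn1-4* FRI. Bin 6 held 0.267, 0.320 and 0.328% in *vrn1-4* FRI warm, against 0.638, 0.706 and 0.625% in WT FRI warm. It held 0.343, 0.399, 0.467 and 0.356% in *vrn1-4* FRI 1W cold, against 0.428, 0.846, 0.688 and 0.685% in WT FRI 1W cold. The warm groups did not overlap, and in the cold WT FRI replicate 1 lay inside the *vrn1-4* FRI range. The log2 differences were -1.08 ± 0.20 in the warm and -0.71 ± 0.17 in the cold (limma adjusted p = 0.00163 and 0.00568). Bin 7, whose sequence is shown above, held 0.188, 0.185 and 0.260% in *vrn1-4* FRI warm, against 0.419, 0.407 and 0.486% in WT FRI warm. In the cold it held 0.249, 0.313, 0.503 and 0.187% in *vrn1-4* FRI, against 0.410, 0.842, 0.738 and 0.586% in WT FRI. The warm groups did not overlap, and in the cold the highest *vrn1-4* FRI library, replicate 3, lay above the lowest WT FRI library, replicate 1. The log2 differences of bin 7 were -1.03 ± 0.30 in the warm and -1.06 ± 0.26 in the cold (limma adjusted p = 0.0198 and 0.00568). The cold difference was -1.51 without the pair of libraries that stood apart. The warm call of bin 7 was lost without *vrn1-4* FRI warm replicate 1 or 2 or WT FRI warm replicate 3 (limma adjusted p = 0.0645 to 0.0821).

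Closer to the antisense start, bin 8 was higher in *vrn1-4* FRI in the cold. It held 0.833, 0.673, 0.963 and 1.33% there, against 0.536, 0.555, 0.460 and 0.461% in WT FRI 1W cold, with no overlap and a log2 difference of 0.86 ± 0.24 (limma adjusted p = 0.0102). In the warm it held 1.24, 0.653 and 0.690% in *vrn1-4* FRI, against 0.473, 0.794 and 0.799% in WT FRI. The warm groups overlapped (0.30 ± 0.27, limma adjusted p = 0.405). Bin 4, which holds the lowest point of coverage, held 0.312, 0.269, 0.370 and 0.429% in *vrn1-4* FRI 1W cold, against 0.243, 0.270, 0.243 and 0.223% in WT FRI 1W cold. Replicate 2 of *vrn1-4* FRI lay just below the highest WT FRI library. The bin passed in the cold (0.46 ± 0.14, limma adjusted p = 0.0144), but not without the pair of libraries (0.42, limma adjusted p = 0.0504) or with fragments of 120 to 150 bp only (0.22, limma adjusted p = 0.224). In the warm bin 4 held 0.399, 0.313 and 0.308% in *vrn1-4* FRI, against 0.280, 0.351 and 0.312% in WT FRI (0.11 ± 0.16, limma adjusted p = 0.585). These shares count midpoints, and coverage at the lowest point inside bin 4 went the other way. That lowest coverage averaged 0.131% in *vrn1-4* FRI 1W cold and 0.307% in WT FRI 1W cold. In the warm it averaged 0.0826% in *vrn1-4* FRI and 0.261% in WT FRI.

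Bin 5, which holds the preferred midpoint at -406, was the flank bin with the largest mean share (1.57%, rank 20 of 96 bins). It held 1.65, 1.73, 1.76 and 1.78% in *vrn1-4* FRI 1W cold and 1.58, 1.32 and 1.55% in *vrn1-4* FRI warm, against 1.51, 1.54, 1.41 and 1.47% in WT FRI 1W cold and 1.48, 1.49 and 1.70% in WT FRI warm. All 4 *vrn1-4* FRI 1W cold libraries exceeded all 4 of WT FRI 1W cold, yet the log2 difference of 0.22 ± 0.09 missed the threshold (limma adjusted p = 0.0508). Bin 9, at the antisense start, had the same adjusted p in the cold (0.63 ± 0.25), and bin 0 had log2 differences of 0.24 in the warm and 0.28 in the cold (limma adjusted p = 0.339 and 0.188).

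**Figure D2:**
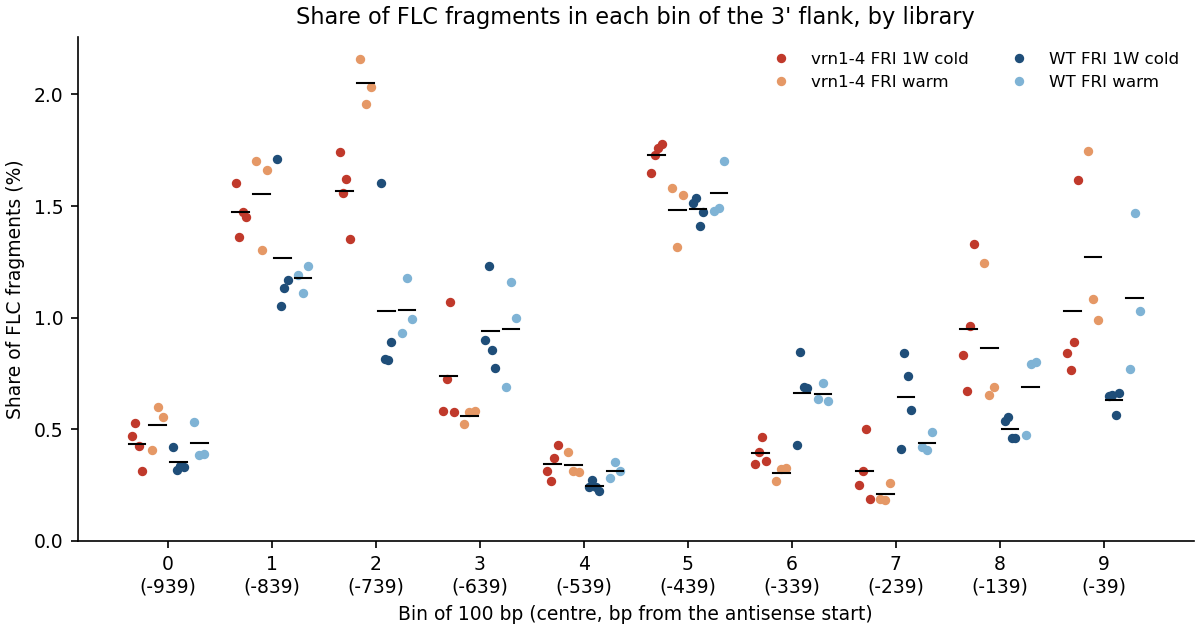
Share of *FLC* fragments (vertical axis, percent) in each of the 10 bins of the flank (horizontal axis, with the centre in bp from the antisense start), for every library (points) and as group means (lines). In bin 2 the 7 *vrn1-4* FRI libraries lay between 1.35 and 2.16%, and the only WT FRI library in that range was 1W cold replicate 1, at 1.60%.

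The differences between genotypes followed the base composition of the bins, in the flank and in the rest of *FLC*. Across the 86 bins outside the flank, the log2 difference correlated with the A+T content at Pearson's r = -0.79 in the warm and -0.77 in the cold (Spearman's rho = -0.79 and -0.76). Across the 10 flank bins r was -0.89 and -0.83 (rho = -0.86 and -0.80). The changes in the cold also correlated with the A+T content, with the opposite sign. Outside the flank r was 0.76 in *vrn1-4* FRI and 0.50 in WT FRI, and across the flank bins 0.85 and 0.56. All these correlations are descriptions over bins that share the same libraries. The flank bins that rose in the warm or the cold had an A+T content of 53% (bin 2), 61% (bin 8) and 70% (bin 4), and those that fell 73% (bin 6), 77% (bin 3) and 78% (bin 7). After a straight line on A+T content, fitted in each library on the bins outside the flank and chosen after seeing the data, 1 flank bin passed in the warm against 17.7% of all bins, and 3 in the cold against 24% of all bins. Bin 6 remained lower in the warm (-0.52, limma adjusted p = 0.023). In the cold bins 4 and 8 remained higher (0.78 and 0.71, limma adjusted p = 0.00329 and 0.0223) and bin 5 passed (0.28, 0.030). Bin 2 no longer passed in the warm (0.36, limma adjusted p = 0.223) or in the cold (0.08, 0.80), nor did bin 7 (-0.17, 0.56 and -0.32, 0.125), bin 6 in the cold (-0.23, 0.214) or bin 3 in the warm (0.08, 0.825). What part the unequal A+T content of the libraries had in the other differences was not tested.

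**Figure D3:**
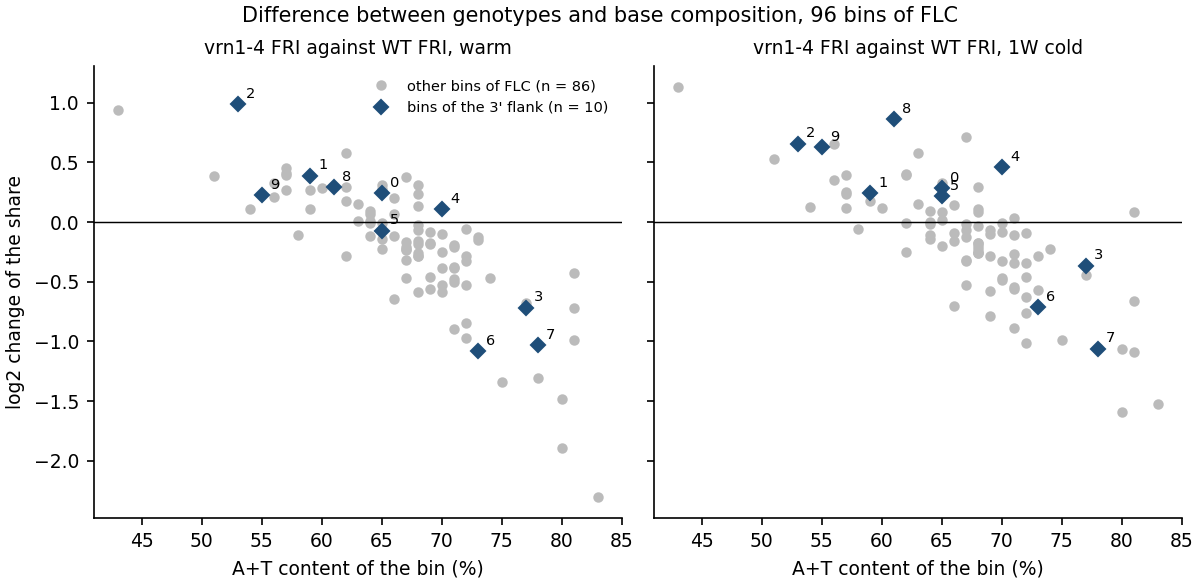
The log2 change of the share in *vrn1-4* FRI against WT FRI (vertical axis) against the A+T content of the bin in percent (horizontal axis), in the warm (left) and after 1 week of cold (right), for the 10 bins of the flank (diamonds, numbered) and the 86 other bins of *FLC* (circles). Both sets sloped downwards (r from -0.89 to -0.77).

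Cold changed no flank bin past the threshold in either genotype in the main fit, although bin 7 passed in *vrn1-4* FRI with replicate number as a block. In WT FRI, 0 of 10 flank bins passed, against 2.08% of all bins (limma, 2.08% also after the A+T line), and 2 of 10 had an unadjusted p under 0.05, against 29.2% of all bins. In *vrn1-4* FRI, 0 of 10 passed, against 0% of all bins, and 1 of 10 had an unadjusted p under 0.05, against 15.6% of all bins. In *vrn1-4* FRI the cold and warm libraries did not overlap in bins 2, 5 and 6 (log2 change -0.39, 0.22 and 0.35, limma adjusted p = 0.268, 0.265 and 0.289). In WT FRI they did not overlap in bin 4 (log2 change -0.35, limma adjusted p = 0.136) or in bin 9. How many of all bins lacked overlap was not counted, so these are given as values only. The largest change in WT FRI was in bin 9, next to the antisense start, which held 0.649, 0.653, 0.565 and 0.662% in 1W cold, against 0.769, 1.47 and 1.03% in the warm. All cold libraries lay below all warm ones (log2 change -0.73 ± 0.27, limma unadjusted p = 0.0159, adjusted p = 0.102), and of the libraries left out in turn, only leaving out *vrn1-4* FRI 1W cold replicate 4, which enters the shared estimate of spread, made it pass. In *vrn1-4* FRI bin 9 held 0.843, 0.766, 0.889 and 1.62% in 1W cold, against 1.75, 1.08 and 0.990% in the warm (log2 change -0.33 ± 0.27, limma adjusted p = 0.435). Without the pair of libraries that stood apart, 1 flank bin passed in WT FRI against 17.7% of all bins, namely bin 7, which was higher in the cold (0.70), and none of 10 in *vrn1-4* FRI. The change in the cold differed between genotypes in 0 of 10 flank bins, against 1.04% of all bins. The smallest adjusted p of this interaction in the flank was 0.806, in bin 5, the only flank bin with an unadjusted p under 0.05 (5.21% of all bins).

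**Figure D4:**
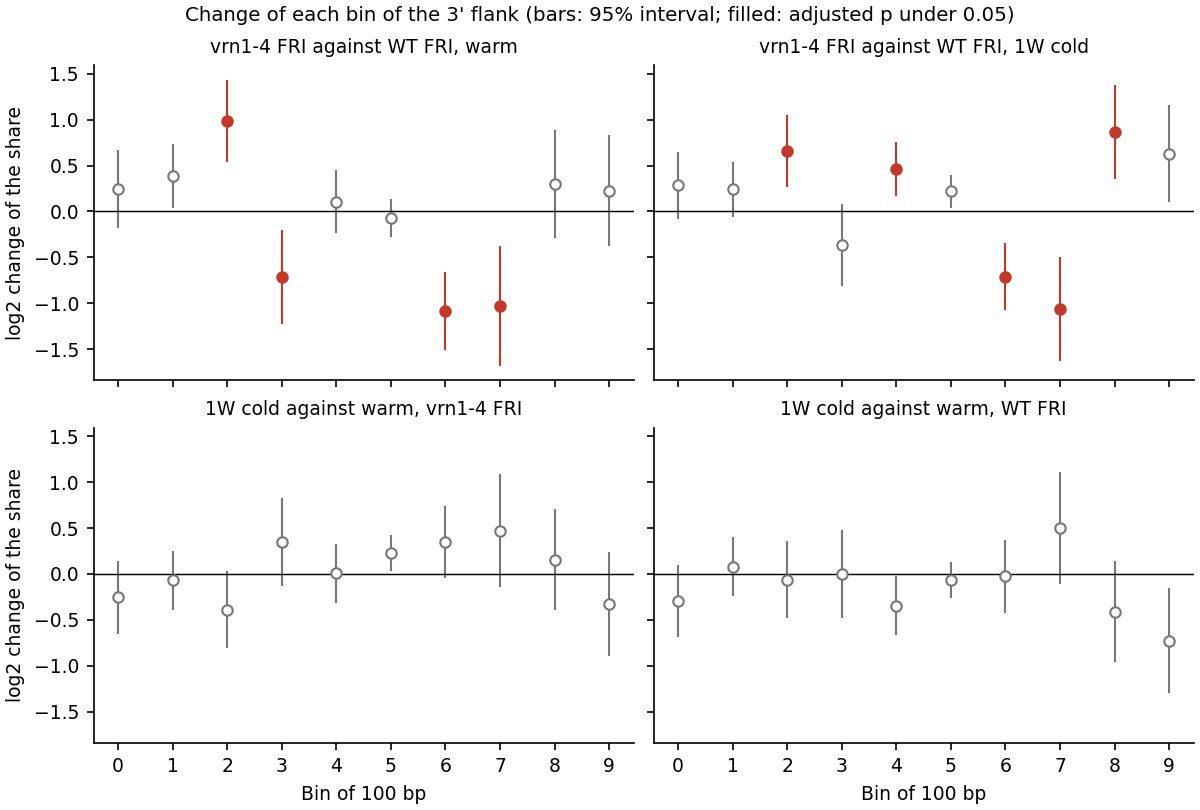
Log2 change of the share of each flank bin (vertical axis; horizontal axis, bin number) in the 4 comparisons, with 95% intervals. Filled points passed the threshold in limma, which was the case for 4 bins between the genotypes in the warm, 5 in the cold and 0 for cold against warm in either genotype.

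Fragments within 500 bp of the *FLC* end, on the side of the antisense start, made up 49.2, 42.8 and 42.6% of flank fragments in *vrn1-4* FRI warm, against 51.0, 53.7 and 54.2% in WT FRI warm. The warm groups did not overlap (difference -8.08 percentage points, exact permutation p = 0.1, the smallest possible, adjusted p = 0.218). In the cold they made up 45.5, 46.6, 48.1 and 56.1% in *vrn1-4* FRI, against 42.0, 54.6, 53.4 and 53.3% in WT FRI. Replicate 4 of *vrn1-4* FRI and replicate 1 of WT FRI each lay on the side of the other genotype, and the difference of -1.79 did not pass (exact permutation p = 0.6, adjusted p = 0.754).

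The most frequent midpoint within 60 bp was read from the profile of each library averaged over 11 bp. It was the same or nearly so in most libraries at -808 and -406. It ranged from 3172654 to 3172719 at -657 and from 3173350 to 3173429 at -2. Of these, 3172654 and 3173429 are the edges of the 60-bp window and not maxima of their own. Within 40 bp it ranged from 3172701 to 3172719 at -657 and from 3173350 to 3173387 at -2. At -406 the most frequent midpoint was 3172964 or 3172965 in 13 of 14 libraries and 3172972 in WT FRI warm replicate 2. At -808 it was 3172563 in all 7 *vrn1-4* FRI libraries, against 3172565 in 6 of 7 WT FRI libraries and 3172574 in WT FRI warm replicate 2. The midpoints 3172563 and 3172565 lie closer together than the 11 bp of averaging. Around the position at -657, 13 bp before the start of AT5G10130, the offset of the mean midpoint (within 60 bp, negative towards that gene) was -15.4, -11.1, -8.77 and -18.9 bp in *vrn1-4* FRI 1W cold, against -5.38, -2.48, -2.28 and -4.16 bp in WT FRI 1W cold. In the warm it was -24.5, -19.1 and -15.6 bp in *vrn1-4* FRI, against -5.47, -9.42 and -4.62 bp in WT FRI. The genotypes did not overlap at either temperature. At -179 the offset (positive towards the antisense start) was 8.73, 4.94, 1.98 and 12.5 bp in *vrn1-4* FRI 1W cold, against 1.07, -2.73, 1.09 and -0.912 bp in WT FRI 1W cold. In the warm it was 13.97, 11.5 and 7.02 bp in *vrn1-4* FRI, against -2.41, 3.85 and 0.602 bp in WT FRI. The genotypes again did not overlap, and in *vrn1-4* FRI the means lay nearer to bin 2 at -657 and farther from bin 7 at -179. Each cold difference (-9.99 bp at -657 and 7.40 bp at -179) had the smallest possible p (exact permutation test, p = 0.0286), but none of 20 such tests passed adjustment (adjusted p = 0.143 at the lowest). Within 40 bp instead of 60 bp the cold differences were -2.38 bp (exact permutation p = 0.286) and 4.22 bp (exact permutation p = 0.0286), and the warm differences -4.40 bp (exact permutation p = 0.2) and 6.13 bp (exact permutation p = 0.1). With this window the genotypes overlapped at -657 at both temperatures and did not overlap at -179. At -2, over the antisense start, the mean midpoint differed by 1.76 bp or less in the 4 comparisons (exact permutation p = 0.486 to 0.714). The most frequent midpoint there nevertheless varied between libraries, as given above.

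Among single fragments, those in AT5G10130 and the one between the genes had opposite differences between genotypes. They are given as values without a test. The most frequent was chr5:3172575-3172717, a fragment of 143 bp that reaches over the start of AT5G10130 and has an A+T content of 55.9%. It made up 0.0805, 0.0613, 0.0782 and 0.0505% of *FLC* fragments in *vrn1-4* FRI 1W cold, against 0.0587, 0.0158, 0.0188 and 0.0216% in WT FRI 1W cold, and 0.136, 0.0847 and 0.123% in *vrn1-4* FRI warm, against 0.0523, 0.0397 and 0.0369% in WT FRI warm. The warm groups did not overlap, and in the cold WT FRI replicate 1 again lay with *vrn1-4* FRI. The 124-bp fragment chr5:3172497-3172620, with an A+T content of 50%, made up 0.0371 ± 0.00774% in *vrn1-4* FRI 1W cold and 0.0155 ± 0.0223% in WT FRI 1W cold (SD, n = 4 each). It made up 0.0732 ± 0.0140% in *vrn1-4* FRI warm and 0.0122 ± 0.00586% in WT FRI warm (SD, n = 3 each). The 149-bp fragment whose sequence is shown above has an A+T content of 67.1% and made up 0.0319, 0.0402, 0.0419 and 0.0655% in *vrn1-4* FRI 1W cold, against 0.0272, 0.118, 0.105 and 0.114% in WT FRI 1W cold. In the warm it made up 0.0307, 0.0188 and 0.0207% in *vrn1-4* FRI, against 0.0556, 0.0543 and 0.0741% in WT FRI. It was lower in every *vrn1-4* FRI warm library and, but for WT FRI replicate 1, in every *vrn1-4* FRI 1W cold library.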

How the data were processed

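The 14 libraries were MNase-treated nuclei of whole seedlings, enriched for *FLC* by hybridisation to baits. Per the labels and the study's methods, the authors trimmed reads with fastp, mapped the pairs with Bowtie2 (TAIR10), separated loci with SAMtools 1.5 and rebuilt fragments, of which those of 100 to 150 bp are in the files. The deposited value is, for each distinct fragment of each library, a fraction of all fragments over *FLC*. The depth is unknown, so that no counting interval was computed, and shorter or longer protected DNA does not enter the shares. Whether duplicates were removed is not given in the sources used here. Value columns without a library numbered 0, and the other loci were not used here.

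Fragments were placed by midpoint. Shares of 96 bins of 100 bp with a mean share of at least 0.0001 were tested by limma 3.58.1 (R 4.3.3) on log2(share + 0.0001), which understates changes of low bins. All 14 libraries shared 1 estimate of spread, and p-values were adjusted by Benjamini-Hochberg over the 96 bins. The fit was tested on simulated data. Values of 1 number per library were tested by exact permutation of libraries (two-sided), adjusted over 24 tests (20 for positions), with a smallest possible p of 0.0286, or 0.1 for 3 against 3. Coverage is the percentage of *FLC* fragments over a base. Preferred midpoints were maxima of the profile averaged over 11 bp, at least 120 bp apart. The most frequent midpoint of a library was read from its profile averaged in the same way. Motifs were searched on both strands. Other steps ran in Python 3.11.15 (scipy 1.17.1 for rank correlations, pandas 2.3.3 with numpy 2.4.6 for the tables, matplotlib 3.10.9 for the plots).

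Groups came from the sample labels. Alternatives were other pseudocounts, no filter, bins moved by 50 bp, fragments of 120 to 150 bp, each distinct fragment counted once, other windows, a replicate block and leaving out each library. Leaving out a pair of libraries and the A+T line were added after seeing the data. The flank, its bins and the motif list were chosen with earlier results of these data known. All 10 bins were accounted for. Values per library were printed for bins past the threshold in any comparison and for the 3 bins with the largest mean share, and the 3 most frequent fragments were named. Other values per library were chosen after they were seen.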

Additional observations from a re-analysis of the deposited data

Results flagged for a closer look

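Of 52 groups of 4 libraries examined, 8 held a library far from the other 3 by Dixon's criterion, which chance gives in about 1 of 20 groups. WT FRI 1W cold replicate 1 accounted for 5 of them. Its antisense-proximal share was 42.0%, against 53.3 to 54.6% in the other libraries of its group, and its share of bin 2 was 1.60%, against 0.811 to 0.892%. Among single fragments it held 0.0587% of the 143-bp fragment over the start of AT5G10130 (0.0158 to 0.0216% in the others), 0.0272% of the 149-bp fragment between the genes (0.105 to 0.118%) and 0.0489% of the 124-bp fragment in AT5G10130 (0.00184 to 0.00632%). In *vrn1-4* FRI 1W cold, replicate 4 held 1.62% in bin 9, against 0.766 to 0.889%, and its mean offset at -406 was -2.75 bp, against -6.49 to -5.99 bp. In WT FRI 1W cold, replicate 3 held 0.565% in bin 9, against 0.649 to 0.662%. What sets these libraries apart was not tested.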

How the results depend on the processing

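Counts of bins along *FLC* past the threshold (limma) moved with several choices. For cold against warm in WT FRI the 2 bins became 4 with bins moved by 50 bp or fragments of 120 to 150 bp, 0 with each distinct fragment counted once, 1 after centring on the median bin, and 17 (1 in the flank) without the pair of libraries that stood apart. Between genotypes in the warm, 35 became 11 (2 in the flank) with distinct fragments counted once and 17 (1 in the flank) after the A+T line. In the cold, 41 became 9 (3 in the flank) and 23 (3 in the flank) under the same choices. Centring on the median bin gave 13 higher and 15 lower in the warm (4 in the flank), and 17 higher and 26 lower in the cold (7 in the flank). The 1 bin whose cold change differed between genotypes became 0 with bins moved, 120 to 150 bp, distinct fragments once, or without the pair.

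Without each library in turn, the counts ranged from 1 to 14 for cold against warm in WT FRI (0 to 1 in the flank), 0 to 9 in *vrn1-4* FRI, 13 to 42 between genotypes in the warm (2 to 5 in the flank) and 0 to 1 for the difference between genotypes. For WT FRI they were 14 without *vrn1-4* FRI 1W cold replicate 4, 10 without WT FRI warm replicate 3 and 9 without WT FRI 1W cold replicate 1. For *vrn1-4* FRI the 9 came without 1W cold replicate 4. Between genotypes in the warm they were 13 without WT FRI warm replicate 3, 16 without *vrn1-4* FRI warm replicate 1 and 23 without *vrn1-4* FRI warm replicate 3.

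Signs turned in differences that had not passed, except bin 3 in the warm. After the A+T line bin 3 had log2 differences of 0.084 (warm) and 0.33 (cold), and with 120 to 150 bp bin 4 had -0.25 in the warm (-0.011 to 0.186 without each library). The flank share for cold against warm in *vrn1-4* FRI was 0.102 with distinct fragments once, 0.00413 with fragments entirely inside the flank and -0.613 to 0.339 without each library. The length relative to the rest of *FLC* was -0.0387 bp in WT FRI with distinct fragments once, and 0.0153 bp in *vrn1-4* FRI without the pair (-0.237 to 0.0153 bp without each library). The flank length between genotypes in the warm ranged from -1.91 to 0.634 bp. Short fragments between genotypes in the warm were 0.163 with distinct fragments once, 2.37 with a limit of 130 bp and -3.05 to 3.80 without each library. The antisense-proximal share between genotypes in the cold was 2.24 for the 300 bp next to the gene, and for cold against warm in WT FRI 0.827 without the pair (-3.38 to 0.827 without each library). Coverage over the antisense start between genotypes in the warm was -0.0027 to 0.609. With a 40-bp window the offset at -808 was 1.14 bp (cold against warm, WT FRI), 1.73 bp (*vrn1-4* FRI), -0.819 bp (genotypes, warm) and -0.227 bp (cold). It was -0.707 bp at -657 in WT FRI, 0.0235 and 0.144 bp at -406 between genotypes in the warm and cold, and 0.813 bp at -179 in WT FRI. Without each library, cold against warm ranged in WT FRI from -1.33 to 1.12 bp at -808, -2.59 to 0.537 bp at -179 and -2.09 to 0.771 bp at -2, and in *vrn1-4* FRI from -1.24 to 0.233 bp at -808. The causes were not tested.

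Whether replicate numbers paired the libraries could not be decided from the correlation of their deviations, since each group has only 3 or 4 libraries. Pairs with the same number had r of -0.0536 to 0.0406 in WT FRI and -0.228 to 0.606 in *vrn1-4* FRI, cold against warm. Between genotypes they had 0.0234 to 0.396 in the cold and -0.596 to 0.0832 in the warm. In *vrn1-4* FRI, r exceeded 0.1 in 2 of 3 pairs with the same number and 4 of 9 with different numbers. Between genotypes in the cold, it did so in 3 of 4 and 5 of 12. In WT FRI these counts were 0 of 3 and 4 of 9, and between genotypes in the warm 0 of 3 and 3 of 6. With a replicate block, 2 bins passed for cold against warm in WT FRI, 16 in *vrn1-4* FRI (1 in the flank, bin 7), 26 between genotypes in the warm (4 in the flank) and 44 in the cold (6 in the flank).

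Depth is unknown, the mean of a group rests on 3 or 4 libraries, and the exact permutation tests between groups did not pass adjustment even at their smallest p, so that missing the threshold does not show that values were alike. WT FRI warm replicate 2 held the fewest distinct fragments.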
